A study of Mus musculus with 12 samples.

Results

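The BCL2 family was followed at the mRNA level in activated (Th0), Th17, and iTreg cells through 10 genes taken by their symbols, out of 11247 genes that are listed in at least 1 of the deposited tables. They are the pro-survival genes Bcl2, Bcl2l1, Mcl1, Bcl2a1b, and Bcl2a1d, the effectors Bax and Bak1, and the BH3-only genes Bcl2l11, Bad, and Bid. All 10 genes were listed in both tables, and all 10 passed the filter on low values.

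BCL2 family proteins decide at the mitochondrial outer membrane whether a cell enters the intrinsic route of apoptosis. BAX and BAK1 form the pores that release cytochrome c, the pro-survival proteins hold them and the BH3-only proteins in check, and the BH3-only proteins, of which BIM (the product of Bcl2l11) is the best known in T cells, carry the death signal to them. In activated T cells the pathway is known for the contraction that follows a response, in which BIM acts against BCL2, and for the survival effect of cytokine and costimulation signals.

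RNA-seq had been done on 12 libraries, 4 from each of the 3 groups. All cells were naive CD4+CD62L+ T cells from spleens of 8 to 10 week old C57BL/6 mice whose T cell receptor and CD28 were engaged by anti-CD3 and anti-CD28 coated on the plate (1 µg/ml each), and they were harvested after 3 days. Th0 cells received no cytokine, Th17 cells received IL6 (30 ng/ml), TGFβ1 (5 ng/ml), and neutralizing antibodies against IL4 and IFNγ (10 µg/ml each), and iTreg cells received IL2 (10 ng/ml) and TGFβ1, for which the labels give 10 ng/ml and the methods of the study another dose. IL2, IL6, the neutralizing antibodies, and the dose of TGFβ1 therefore differ between the polarized groups together, and their parts in any difference cannot be told apart. Values are FPKM, in which fragments are scaled to gene length and library size, so that levels of different genes can be set side by side. This holds less well for Bcl2a1b and Bcl2a1d, whose reads can fit several genes, so that their places among the 10 genes are uncertain. Libraries are named here by the beginning of their column headings (M22, M29, M42, and M43), which recur in every group and whose meaning is not stated in the sources used here.

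Relative depth, read from the steps of low FPKM values, had medians that differed little between groups. They were 0.962 in Th0 (0.843 to 1.05) and 0.999 in Th17 libraries (0.918 to 1.08) of the first table. In the second they were 0.941 in Th0 (0.825 to 1.03) and 1.03 in iTreg libraries (0.974 to 1.19). The widest gap within a heading was that of M22, with 0.825 in Th0 and 1.19 in iTreg cells. Apart from the reference library (Th0 M22), each estimate rests on 18 to 71 genes. The T cell markers Cd3e, Cd3d, Cd4, and Cd28 were listed in all libraries, with a summed level of 572 to 1210 FPKM in Th0 and 403 to 795 FPKM in Th17 libraries of the first table and of 565 to 1200 FPKM in Th0 and 461 to 689 FPKM in iTreg libraries of the second. Cd4 was down-regulated in Th17 cells (log2 fold change -1.54 ± 0.43, adjusted p = 0.038), and with the beginning of the heading as a replicate block Cd3d was lower in Th17 cells and Cd28, Cd3d, and Cd3e were lower in iTreg cells. The part of these markers in the results was not tested. Of the markers of other cells, none of 4 red cell genes and 1 of 9 myeloid genes were listed (Itgam, at most 0.628 FPKM, in the Th17 table), while Cd79a of 4 B cell markers reached 3.84 FPKM and Cd8b1 of 4 CD8 T and NK cell markers 6.6 FPKM, with overlap between the groups. The Th17 library M43 stood apart from the other Th17 libraries. Foxp3, the defining transcription factor of Treg cells, was at 42.5 FPKM in it and at 0.499, 0.502, and 4.5 FPKM in the others, against 62 to 91.7 FPKM in iTreg libraries. The DE genes among the 10 and the ratios of Bcl2l11 are therefore also given without it, and no unpaired call of the 10 genes changed when it was left out. In bulk RNA, fewer cells with a transcript and less transcript per cell cannot be told apart.

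The levels of the 10 genes spanned a wide range in every group, and the top of the order was shared. Bax, the effector that moves from the cytosol to mitochondria on activation, had the highest mean level, with 231 ± 36.0 FPKM in Th0, 191 ± 26.2 FPKM in Th17, and 262 ± 19.8 FPKM in iTreg cells (SD, n = 4). Mcl1, whose short-lived product binds BIM and BAK1, followed with 118 ± 11.1, 126 ± 16.9, and 114 ± 11.4 FPKM (SD, n = 4). In Th0 cells Bcl2a1b came next and differed from Mcl1 by less than its SD, followed by Bcl2l1, Bak1, and Bcl2, whose neighbouring means also differed by less than the larger SD. At the lower end stood Bcl2a1d and Bcl2l11, with nearly equal means, and then Bid and Bad, again with a gap below their SD. Bcl2 was the sixth gene in Th0, the seventh in Th17, and the fifth in iTreg cells. In Th17 and iTreg cells its gaps to both neighbouring genes were below the larger SD, so that these places are uncertain. Its Th17 mean also includes the high value of the library M43 (20.5 FPKM). Bcl2l11 went from the eighth place in Th0 cells to the last in both polarized groups. The gap of Bcl2l11 to Bid was below the SD in Th17 cells, while its gap to Bad in iTreg cells was not.

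**Figure D1:**
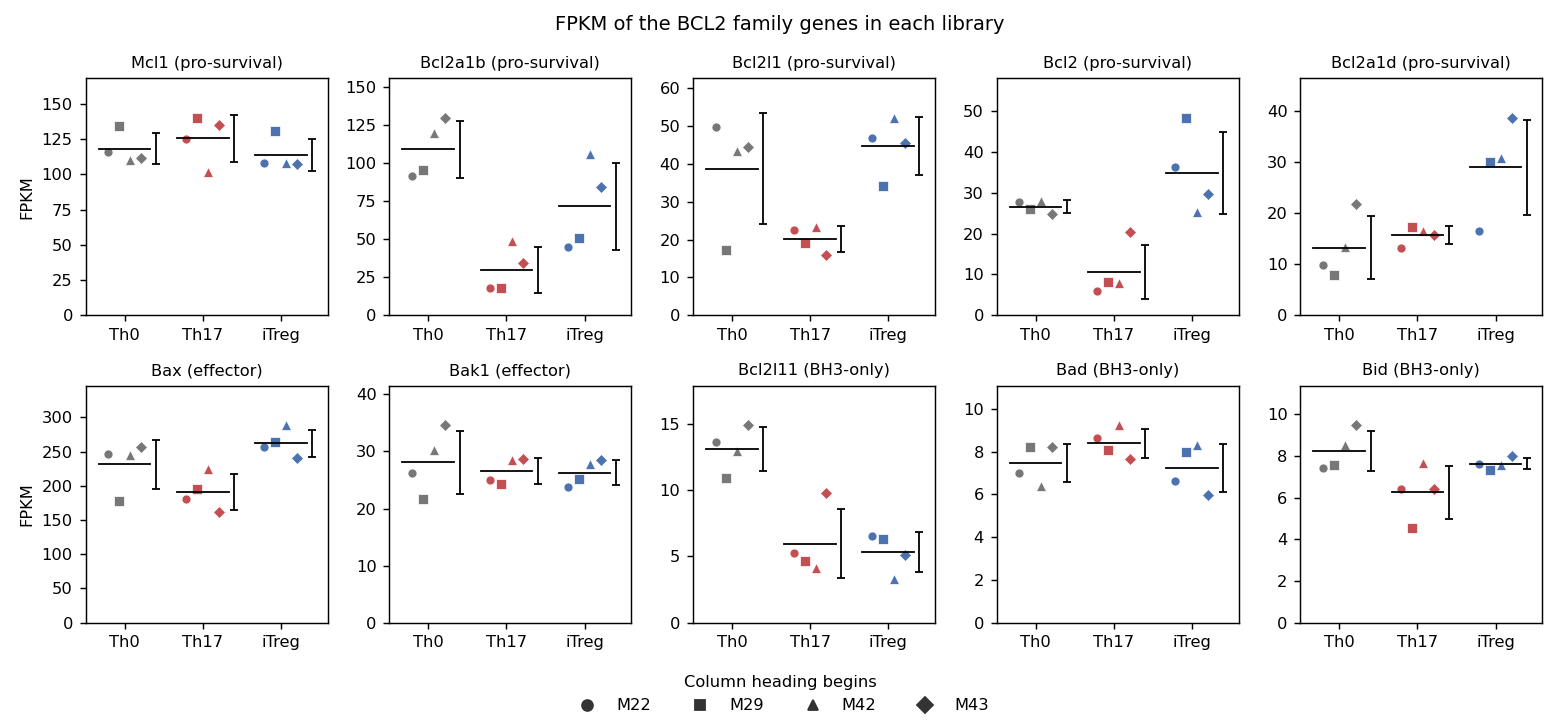
FPKM (vertical axes, each from 0) of the 10 genes in the 12 libraries; symbols give the beginning of the column heading, horizontal lines the group means, and bars the SD (n = 4), with Th0 values from the Th17 table. Bcl2, Bcl2a1b, and Bcl2l11 lay lower in all Th17 than in all Th0 libraries, Bcl2l11 also in all iTreg libraries, and the Th17 library M43 was the highest Th17 library for Bcl2 (20.5 FPKM) and Bcl2l11 (9.8 FPKM).

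In Th17 compared to Th0 cells, 3 of the 10 genes were DE at an FDR of 0.05, all of them down-regulated, namely Bcl2, Bcl2a1b, and Bcl2l11. Of all genes tested, 19.3% were DE in this comparison and 8.69% were down-regulated. The same 3 genes had no overlap between Th17 and Th0 libraries, where 23.8% of all genes had no overlap and 10.6% were lower in Th17 cells without it, and the exact permutation test gave each of them p = 0.029, the smallest two-sided p that 4 against 4 libraries allow. With the beginning of the heading as a replicate block, Bcl2l1 and Bid were down-regulated as well (5 of 10), against 37.8% of all genes DE and 18.6% down-regulated. The median log2 fold change of the 10 genes was -0.32, and that of all genes tested was 0.00.

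In iTreg compared to Th0 cells, Bcl2l11 was down-regulated and the other 9 genes were not DE, where 16.6% of all genes were DE, 8.36% up-regulated and 8.21% down-regulated. It was also the only one of the 10 without overlap between the groups (22.8% of all genes had no overlap, and 11.0% were lower in iTreg cells without it). With the replicate block, Bcl2a1b was down-regulated and Bcl2a1d up-regulated as well, against 40.9% of all genes DE (20.9% up-regulated and 20.0% down-regulated). The median log2 fold change of the 10 genes was -0.04 here, against 0.01 for all genes tested. Both comparisons use the same Th0 libraries and are therefore not independent of each other.

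**Figure D2:**
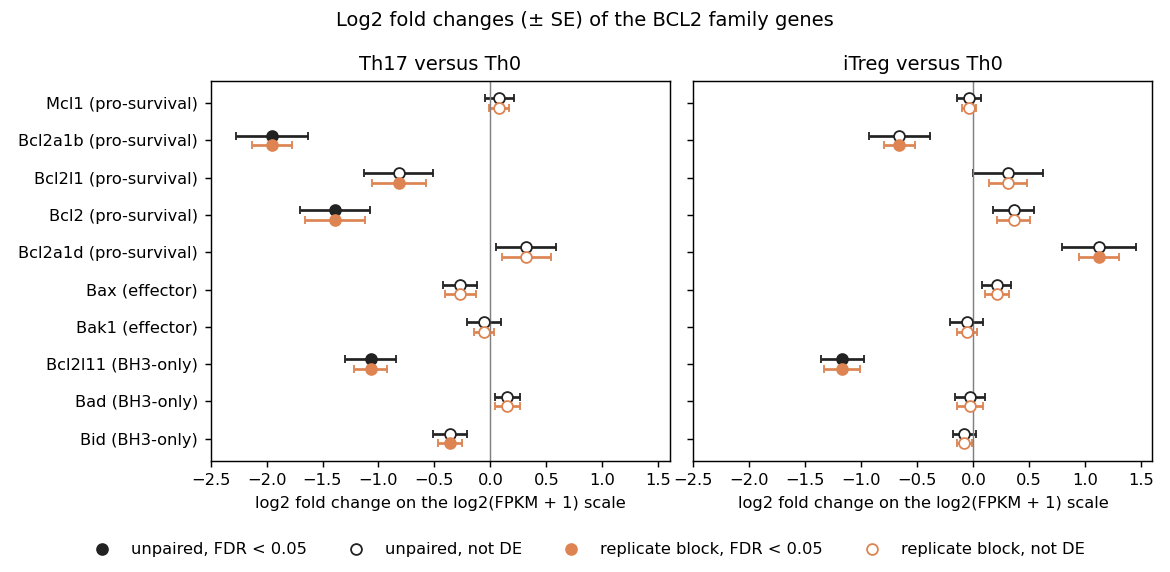
Log2 fold change on the log2(FPKM + 1) scale (horizontal axes) of the 10 genes in Th17 (left) and iTreg cells (right) compared to Th0 cells, with bars for the SE; black marks the unpaired fit, orange the fit with a replicate block, and filled circles an FDR under 0.05. Bcl2a1b (-1.95), Bcl2 (-1.39), and Bcl2l11 (-1.07) were filled in both fits on the left, and Bcl2l11 (-1.17) on the right.

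Bcl2, the founding pro-survival gene of the family, which is induced by cytokines such as IL2 and IL7 in T cells, spans 106538178 to 106714274 of chromosome 1 (GRCm38, minus strand). In the libraries M22, M29, M42, and M43 it was at 27.8, 25.9, 27.9, and 24.7 FPKM in Th0 cells and at 5.95, 8.06, 7.96, and 20.5 FPKM in Th17 cells. Th0 libraries lay close together, and 3 Th17 libraries lay far below them, while M43 came near the lowest Th0 library without reaching it. Bcl2 was down-regulated by a log2 fold change of -1.39 ± 0.31 (SE, limma adjusted p = 0.013). Without the Th17 library M43 the log2 fold change was -1.74 (adjusted p = 0.000197). In iTreg cells Bcl2 was at 36.4, 48.4, 25.2, and 29.7 FPKM. A single iTreg library, M42, lay below its Th0 counterpart, and the log2 fold change of 0.36 ± 0.18 did not pass the test (adjusted p = 0.23, and 0.1 with the replicate block).

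Bcl2l1 encodes BCL-XL, which costimulation through CD28 is known to raise in T cells, and lies on chromosome 2 from 152780668 to 152831728 on the minus strand. It was at 49.9, 17.1, 43.5, and 44.5 FPKM in Th0 cells and at 22.6, 19.1, 23.3, and 15.8 FPKM in Th17 cells. The Th0 library M29 was as low as the Th17 libraries, and the other 3 Th0 libraries were above all of them. The log2 fold change of -0.82 ± 0.31 did not pass the unpaired test (adjusted p = 0.11). It passed with the replicate block (adjusted p = 0.037) and, unpaired, without the Th0 library M29, where it was -1.16 (adjusted p = 0.00172). With any other library left out it did not pass (adjusted p up to 0.234). In iTreg cells Bcl2l1 was at 47, 34.2, 52.2, and 45.6 FPKM, with a log2 fold change of 0.31 ± 0.31 (adjusted p = 0.58) that was -0.03 without the same Th0 library.

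Mcl1, on chromosome 3 from 95658788 to 95663176 on the plus strand, had the smallest log2 fold change of the 5 pro-survival genes in both comparisons. It was at 116, 134, 111, and 112 FPKM in Th0 cells, at 125, 140.2, 102, and 135 FPKM in Th17 cells, and at 108, 131, 108, and 108 FPKM in iTreg cells. The groups overlapped throughout, and M29 was the highest library of each group. The log2 fold changes were 0.08 ± 0.13 in Th17 (adjusted p = 0.71) and -0.04 ± 0.11 in iTreg cells (adjusted p = 0.85). MCL1 is known to be controlled to a large extent by protein turnover, which these data do not measure. Of 5 genes for that turnover, Fbxw7, a substrate receptor of an SCF ubiquitin ligase, was up-regulated in Th17 cells, from 7.43 ± 1.03 to 11.7 ± 1.38 FPKM (SD, n = 4, log2 fold change 0.59 ± 0.12, adjusted p = 0.011). No gene of the 5 was DE in iTreg cells by the unpaired fit. With the replicate block, Usp9x was down-regulated in Th17 (log2 fold change -0.33, adjusted p = 0.026) and in iTreg cells (-0.36, adjusted p = 0.014), and no other call of the 5 changed.

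Bcl2a1b and Bcl2a1d are mouse copies of the gene for A1 (BFL1), a pro-survival protein that NF-κB signalling induces in activated lymphocytes. Bcl2a1b lies on chromosome 9 from 89199209 to 89207827 on the plus strand, and Bcl2a1d lies on the same chromosome from 88723285 to 88731914 on the minus strand. Their coding sequences, each of 516 bases, were compared in the GENCODE transcripts because a read can fit more than a single copy. They differ at 6 positions, counted from 1 at the first base of the start codon and written with the base of Bcl2a1b first: G4T, T48C, A94C, G312A, C381G, and T490A. The stretches that hold these positions are shown 5′ to 3′ with the differing bases in capitals, first positions 1 to 103 and then positions 303 to 499.
Bcl2a1b, positions 1 to 103: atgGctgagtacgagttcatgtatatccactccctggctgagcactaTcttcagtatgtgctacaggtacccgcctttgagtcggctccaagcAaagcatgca
Bcl2a1d, positions 1 to 103: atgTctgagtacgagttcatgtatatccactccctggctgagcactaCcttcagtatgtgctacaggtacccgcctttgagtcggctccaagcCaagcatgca
Bcl2a1b, positions 303 to 499: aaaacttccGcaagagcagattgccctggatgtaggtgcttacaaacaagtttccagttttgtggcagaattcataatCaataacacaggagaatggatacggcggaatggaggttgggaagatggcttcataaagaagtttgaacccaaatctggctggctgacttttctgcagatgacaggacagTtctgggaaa
Bcl2a1d, positions 303 to 499: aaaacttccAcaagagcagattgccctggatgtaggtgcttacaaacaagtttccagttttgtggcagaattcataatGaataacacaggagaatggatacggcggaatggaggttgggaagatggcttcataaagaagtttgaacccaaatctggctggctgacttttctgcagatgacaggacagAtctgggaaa

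The coding sequences were thus 98.84% identical, and only 43.2% of the stretches of 100 bases (the read length) in the Bcl2a1b transcript and 45.3% of those in the Bcl2a1d transcript occurred in no other gene. For Bcl2a1b, 31.1% of the stretches occurred in another Bcl2a1 copy and the gene model Gm29094 covers 49.1% of its exonic bases. For Bcl2a1d, 54.7% occurred in another copy. The methods of the study name the union mode of HTSeq-count. They do not say how reads that align to several copies were treated, and the split of reads between the copies is uncertain.

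Bcl2a1b was at 91.4, 95.2, 119.8, and 129.7 FPKM in Th0 cells and at 17.6, 18.1, 49, and 34 FPKM in Th17 cells. All Th17 libraries were far below all Th0 libraries, and within each group M22 and M29 were lower than M42 and M43. Bcl2a1b had the largest log2 fold change of the 10 genes, with -1.95 ± 0.32 (SE, adjusted p = 0.0029), and -2.06 without the Th17 library M43 (adjusted p = 0.00649). In iTreg cells it was at 45, 50.6, 106, and 84.4 FPKM, lower than Th0 cells for all 4 headings although M42 lay within the Th0 range. The log2 fold change of -0.66 did not pass the unpaired test (SE 0.27, adjusted p = 0.14) and passed with the replicate block (SE 0.14, adjusted p = 0.0103). Unpaired, it passed without the iTreg library M42 (-0.87, adjusted p = 0.0463). With any other library left out it did not pass (adjusted p up to 0.3).

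Bcl2a1d was at 9.9, 7.84, 13.4, and 21.8 FPKM in Th0 cells, at 13.2, 17.3, 16.5, and 15.8 FPKM in Th17 cells, and at 16.5, 30.01, 30.8, and 38.7 FPKM in iTreg cells. It thus did not share the lower level of its copy in either polarized group. In Th17 cells the log2 fold change was 0.32 ± 0.27 (adjusted p = 0.45). In iTreg cells it was higher for all 4 headings, but the library M22 lay within the Th0 range, and the log2 fold change of 1.12 passed the test with the replicate block (SE 0.18, adjusted p = 0.0034) and not without it (SE 0.33, adjusted p = 0.051). Within a library, the FPKM ratio of Bcl2a1b to Bcl2a1d, which was chosen after the values were seen and not tested, was 9.24, 12.1, 8.91, and 5.95 in Th0, 1.33, 1.04, 2.97, and 2.16 in Th17, and 2.73, 1.69, 3.44, and 2.18 in iTreg cells. The ratio of every polarized library was below that of every Th0 library. Another copy, Bcl2a1a, was listed at 0.77 to 8.92 FPKM.

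**Figure D3:**
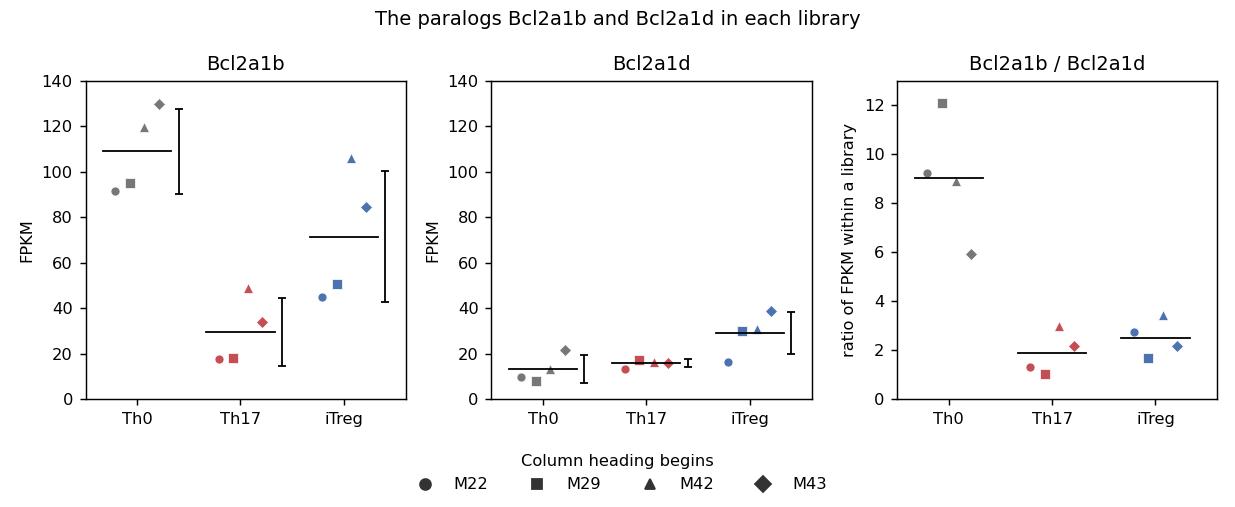
FPKM of Bcl2a1b (left) and Bcl2a1d (middle) and the ratio of both within a library (right) in the 12 libraries; lines give the group means and bars the SD (n = 4). Bcl2a1b was at 91.4 to 129.7 FPKM in Th0 and at 17.6 to 49 FPKM in Th17 libraries, and the ratio was at least 5.95 in Th0 and at most 3.44 in polarized libraries.

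As a share of the summed FPKM of the 5 pro-survival genes, Mcl1 had a median of 37.2% in Th0 (33.7 to 47.9%), 64.5% in Th17 (51.3 to 69.1%), and 39.0% in iTreg libraries (33.5 to 44.5%). The Th17 shares lay above all others. Bcl2a1b had a median share of 36.0% in Th0, 12.5% in Th17, and 22.7% in iTreg libraries, and Bcl2 had 9.04%, 3.99%, and 12.1%, where the Th17 library M43 alone reached 9.26%. The sum itself was 280.6 to 332.6 FPKM in Th0, 184 to 221 FPKM in Th17, and 253 to 322 FPKM in iTreg libraries. These shares describe mRNA composition and were not tested. The uncertain counting of reads of the Bcl2a1 copies enters the sum and therefore every share.

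**Figure D4:**
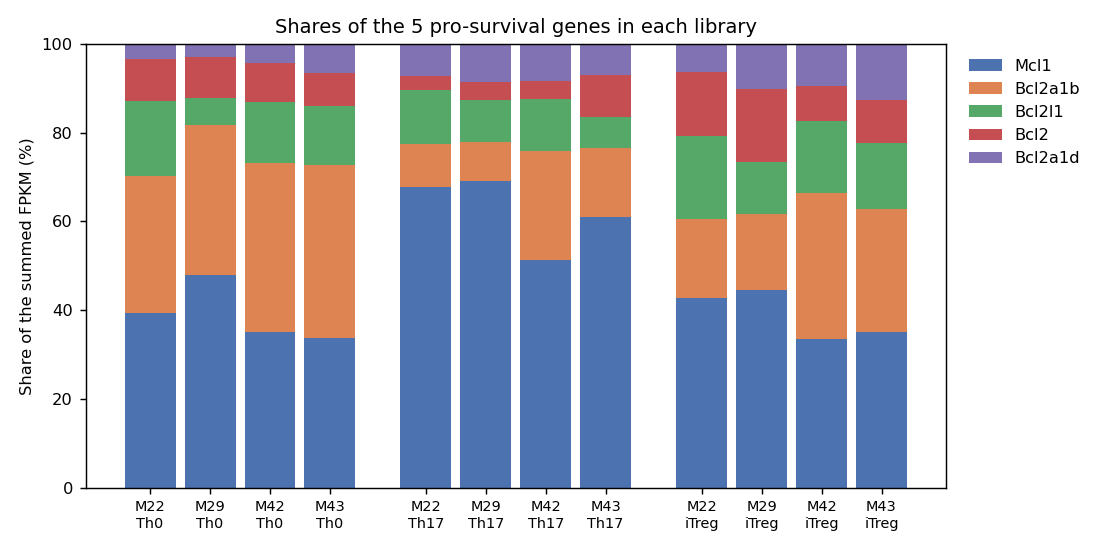
Share (%, vertical axis) of Mcl1, Bcl2a1b, Bcl2l1, Bcl2, and Bcl2a1d in their summed FPKM, with 1 bar for each of the 12 libraries. Mcl1 made up 51.3 to 69.1% in Th17 libraries and 33.5 to 47.9% in the others.

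Neither effector passed the test in either comparison. Bax, on chromosome 7 from 45461697 to 45466898 on the minus strand, was at 246, 178, 245, and 256 FPKM in Th0 cells, at 181, 195, 224, and 162 FPKM in Th17 cells, and at 256, 264, 288, and 241 FPKM in iTreg cells. The Th0 library M29 was again the low one. The log2 fold changes were -0.27 ± 0.15 (adjusted p = 0.25) and 0.21 ± 0.13 (adjusted p = 0.34). Bak1, which resides in the mitochondrial membrane, lies on chromosome 17 from 27019810 to 27029009 on the minus strand. It ranged from 21.6 to 34.6 FPKM in Th0 cells, from 24.3 to 28.6 FPKM in Th17 cells, and from 23.7 to 28.5 FPKM in iTreg cells, and both polarized groups lay within the Th0 range. Its log2 fold change was -0.06 ± 0.15 in both comparisons. Reads were counted without strand, and Bak1 overlaps Ggnbp1 in 25.5% of its exonic bases and Bax overlaps Gm45808 in 12.2%.

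Bcl2l11 was the gene of the family with lower levels in both polarized groups by the unpaired test. It lies on chromosome 2 from 128126038 to 128162547 on the plus strand, and its exons overlap no other annotated gene. It was at 13.6, 10.9, 12.9, and 14.9 FPKM in Th0 cells, at 5.29, 4.67, 4.09, and 9.8 FPKM in Th17 cells, and at 6.57, 6.32, 3.28, and 5.1 FPKM in iTreg cells. All polarized libraries were below all Th0 libraries, and the Th17 library M43 was nearest to them. The log2 fold change was -1.07 ± 0.23 in Th17 (adjusted p = 0.011) and -1.17 ± 0.19 in iTreg cells (adjusted p = 0.0037). Without the Th17 library M43 it was -1.3 in Th17 cells (adjusted p = 0.000769).

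Because BIM transcription in lymphocytes is known to be driven by FOXO factors, the RefSeq promoters of the 10 genes (from 250 bases before to 50 bases after each start) were searched on both strands for GTAAACA (FOXO), for TTCNNNGAA (STAT), and for a κB motif (GGG, any 2 bases, TT, any base, and CC). Among 32851 mouse promoters 3.65% held the FOXO, 8.3% the STAT, and 4.79% the κB letters. Of the 2 Bcl2l11 promoters, the one whose start is that of the annotated gene held the FOXO letters at -227 and the κB letters at -114 from the start, and the other held none of the 3 motifs. The κB letters also stood in the Mcl1 promoter and in 1 of the Bcl2l1 promoters, and the STAT letters in none of the 10 genes. The stretch of the first Bcl2l11 promoter with both matches (GRCm38.p6, chr2:128125788-128125937, plus strand) is shown 5′ to 3′ with the matches in capitals.
Bcl2l11: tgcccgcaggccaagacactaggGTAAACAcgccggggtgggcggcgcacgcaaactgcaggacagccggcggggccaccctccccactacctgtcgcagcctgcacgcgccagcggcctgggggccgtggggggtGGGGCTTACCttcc
These are matches of letters and not measured binding. Foxo3, a FOXO factor for which Bcl2l11 is a known target, was at 19.1 ± 3.34 FPKM in Th0 and 12.4 ± 3.22 FPKM in Th17 cells (SD, n = 4), a log2 fold change of -0.60 ± 0.19 that did not pass unpaired (adjusted p = 0.057) and passed with the replicate block (adjusted p = 0.011). In iTreg cells its log2 fold change was -0.02 ± 0.14 (adjusted p = 0.95). Other FOXO genes were not examined here. The study reported more FOXO1 protein in both polarized groups than in Th0 cells, by immunoblot. The part of FOXO factors in the level of Bcl2l11 was not tested.

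Bad, whose product is held inactive by phosphorylation downstream of growth factor signals, lies on chromosome 19 from 6941861 to 6951899 on the plus strand, and overlaps Gpr137 in 20.5% of its exonic bases. It ranged from 6.4 to 8.24 FPKM in Th0, from 7.67 to 9.22 FPKM in Th17, and from 5.95 to 8.31 FPKM in iTreg cells. The groups overlapped, with log2 fold changes of 0.15 ± 0.11 (adjusted p = 0.39) and -0.03 ± 0.13 (adjusted p = 0.9). Bid, which caspase-8 cleaves to link death receptors to mitochondria, lies on chromosome 6 from 120891930 to 120916853 on the minus strand and overlaps Bcl2l13 in 17.7% of its exonic bases. It was at 7.41, 7.54, 8.52, and 9.46 FPKM in Th0 and at 6.42, 4.56, 7.66, and 6.4 FPKM in Th17 cells. Bid was lower in Th17 cells for all 4 headings, but the groups overlapped, and the log2 fold change of -0.36 passed with the replicate block (SE 0.11, adjusted p = 0.04) and not without it (SE 0.15, adjusted p = 0.13). In iTreg cells it ranged from 7.33 to 7.98 FPKM, with a log2 fold change of -0.08 ± 0.10 (adjusted p = 0.65).

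Bcl2l11 was then set against some of the pro-survival genes, as the FPKM ratio of Bcl2l11 to Bcl2, Mcl1, and Bcl2l1 within each library. Ratios to Bcl2a1b and Bcl2a1d were not formed. The log2 fold change of Bcl2a1b was -1.95 in Th17 and -0.66 in iTreg cells (the latter not DE unpaired), against -1.07 and -1.17 for Bcl2l11. The ratios are of mRNA and do not measure a balance of proteins. Such a ratio does not depend on how a library was scaled, so that Th17 and iTreg cells could be compared directly. The ratio of Bcl2l11 to Bcl2 was 0.488, 0.42, 0.463, and 0.602 in Th0 cells, 0.888, 0.579, 0.514, and 0.479 in Th17 cells, and 0.181, 0.131, 0.13, and 0.172 in iTreg cells. The iTreg libraries were below all others, while the Th0 and Th17 libraries overlapped. On the log2 scale the ratio was lower by 1.69 in iTreg than in Th0 cells (log2 difference -1.69) and higher by 1.98 in Th17 than in iTreg cells, in 4 of 4 headings each, and the difference between Th17 and Th0 cells was 0.29. The exact two-sided permutation p was 0.029 for both differences of the iTreg cells and 0.29 for that between Th17 and Th0 cells.

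The ratio of Bcl2l11 to Mcl1 showed another order. It was 0.117, 0.0809, 0.117, and 0.133 in Th0 cells, 0.0423, 0.0333, 0.0401, and 0.0726 in Th17 cells, and 0.0607, 0.0484, 0.0304, and 0.0474 in iTreg cells. Both polarized groups were below Th0 cells without overlap, by log2 differences of -1.29 and -1.28 (exact permutation p = 0.029 each, lower in 4 of 4 headings), and differed from each other by -0.01 (exact permutation p = 0.97). The ratio of Bcl2l11 to Bcl2l1 ranged from 0.272 to 0.635 in Th0, from 0.175 to 0.62 in Th17, and from 0.0628 to 0.185 in iTreg cells. It was lower in iTreg than in Th0 cells by a log2 difference of -1.64 (exact permutation p = 0.029), and the differences of -0.37 between Th17 and Th0 cells and of 1.27 between Th17 and iTreg cells had exact permutation p-values of 0.4 and 0.057. Over the 9 tests, the Benjamini-Hochberg adjusted value of the 5 smallest p-values was 0.051, so that none passed 0.05 after adjustment, and 0.029 is the smallest p that 4 against 4 libraries allow. Without the Th17 library M43, the log2 differences of Th17 from Th0 cells were 0.39 for Bcl2, -1.52 for Mcl1, and -0.75 for Bcl2l1, and those of Th17 from iTreg cells were 2.08, -0.24, and 0.89.

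**Figure D5:**
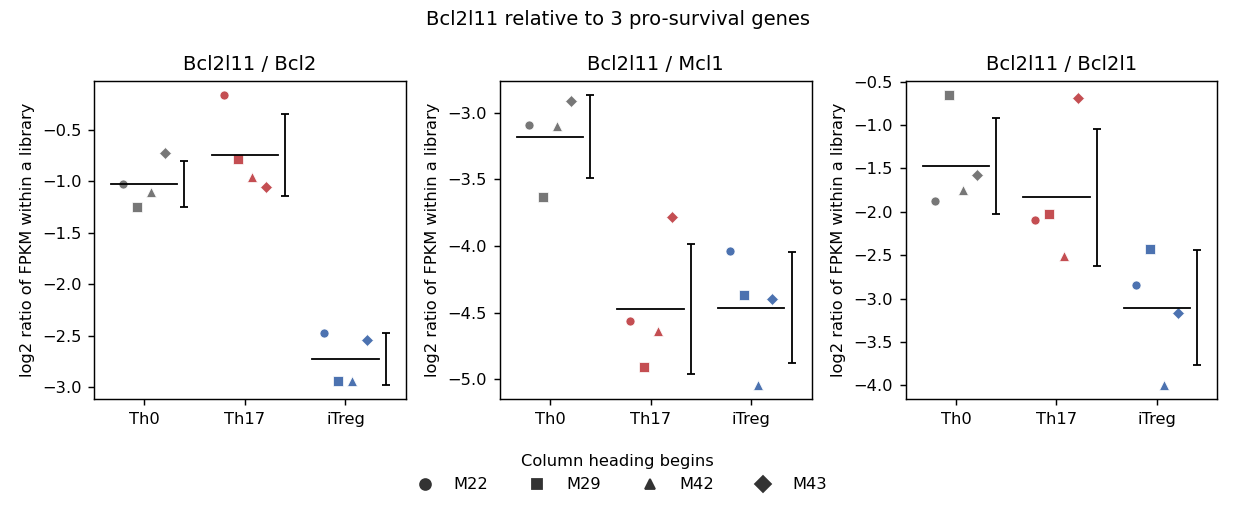
Log2 of the FPKM ratio within a library of Bcl2l11 to Bcl2 (left), Mcl1 (middle), and Bcl2l1 (right) in the 12 libraries; the axes do not start at 0, lines give the means, and bars the SD (n = 4). iTreg libraries were below Th0 libraries in all 3 plots, and Th17 libraries lay with Th0 for Bcl2 and with iTreg libraries for Mcl1.

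Other genes of the pathway were described from lists of 60 genes, of which 53 were listed in the Th17 and 52 in the iTreg table and 51 were tested in each. In Th17 cells 3 were up-regulated and 5 down-regulated, and in iTreg cells 5 and 5 (8 and 10, and 11 and 11, with the replicate block). The DE genes made up 15.7% and 19.6% of those tested, near the 19.3% and 16.6% of all genes, and with the block 35.3% and 43.1%, near the 37.8% and 40.9% of all genes. The median log2 fold changes were -0.06 and 0.01. Of 16 further BCL2 family genes, 9 were tested, and the only one DE by the unpaired fit was Bnip3l, a mitophagy receptor. It had a log2 fold change of -0.42 ± 0.11 in iTreg cells (adjusted p = 0.035). This call was lost in 7 of 17 alternatives, with log2 fold changes of -0.49 to -0.37 when 1 library was left out. Bcl2l12 was down-regulated in iTreg cells only with the replicate block (log2 fold change -0.31, adjusted p = 0.038). Bcl2l2, which encodes the pro-survival BCL-W, was up-regulated in both comparisons only with the replicate block, at 5.998 to 11.1 FPKM in Th17, 5.47 to 10.4 FPKM in iTreg, and 4.49 to 6.25 FPKM in Th0 cells.

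Of 12 genes downstream of the mitochondrial step, 1 was up-regulated and 1 down-regulated in each comparison. Casp6, an executioner caspase, was up-regulated in Th17 cells by a log2 fold change of 0.68 ± 0.13 (adjusted p = 0.0061), and Diablo, which encodes an antagonist of the inhibitors of apoptosis, in iTreg cells by 0.31 ± 0.08 (adjusted p = 0.034). The call of Diablo was lost in 10 of 17 alternatives, while its log2 fold change stayed at 0.29 to 0.34 when 1 library was left out. Other annotated genes overlap 40.85% of the exonic bases of Diablo. None of the 5 inhibitors of apoptosis tested was DE by the unpaired fit, while with the replicate block Birc5 was down-regulated in Th17 cells (adjusted p = 0.043) and Birc2, Birc5, and Birc6 were down-regulated in iTreg cells (adjusted p = 0.023, 0.0055, and 0.015), where they were lower for 4 of 4 headings. Of 9 death receptor genes, Fasl, the ligand of FAS, was at 9.28 to 15.6 FPKM in Th0, 0.215 to 1.32 FPKM in Th17, and 3.46 to 8.72 FPKM in iTreg cells, and was down-regulated in both comparisons (-3.10 ± 0.23, adjusted p = 4.9e-05, and -1.08 ± 0.25, adjusted p = 0.022). Casp8 was up-regulated in iTreg cells, with a log2 fold change of 0.43 ± 0.12 (adjusted p = 0.044) that stayed at 0.34 to 0.51 when 1 library was left out, although the call was lost in 11 of 17 alternatives.

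Of 11 tested transcription factors known to act on BCL2 family genes, Stat5b was up-regulated and Rel, Nfkb2, and Trp53 were down-regulated in Th17 cells. In iTreg cells Stat5a, Stat5b, and Myc were up-regulated and Rel and Rela down-regulated. Among all genes tested, 19.3% were DE in Th17 and 16.6% in iTreg cells. This list was chosen with earlier results of these data known. Rel, the NF-κB subunit known for the induction of Bcl2a1 and Bcl2l1, was at 39.4, 26.4, 36.2, and 39.1 FPKM in Th0, at 11.2, 9.16, 12.6, and 12.8 FPKM in Th17, and at 24.6, 21.3, 20.4, and 22.5 FPKM in iTreg cells. The 3 groups did not overlap, with log2 fold changes of -1.54 ± 0.16 (adjusted p = 0.00027) and -0.62 ± 0.14 (adjusted p = 0.018). Nfkb2, with 18.1% of its exonic bases overlapped by other genes, was at 135 ± 38.6 FPKM in Th0 and 51.8 ± 4.88 FPKM in Th17 cells (SD, n = 4). Its log2 fold change was -1.32 ± 0.21 (adjusted p = 0.0025). Stat5a and Stat5b, which carry the IL2 signal and act on Bcl2, had log2 fold changes of 0.61 ± 0.22 (adjusted p = 0.096, and 0.0065 with the replicate block) and 0.89 ± 0.10 in Th17 cells and of 1.10 ± 0.19 and 1.02 ± 0.09 in iTreg cells. Myc had a log2 fold change of 1.05 ± 0.18 in iTreg cells (adjusted p = 0.0055). The part of these transcription factors in the levels of the BCL2 family genes was not tested.

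Across the 8 libraries of each table, the genes whose log2(FPKM + 1) followed that of Bcl2 most closely were Irgm2 (Pearson's r of 0.91 in the Th17 and 0.857 in the iTreg table), Ogfr (0.827 and 0.875), and Utp18 (0.817 and 0.906), out of 10078 genes tested in both tables. The libraries of both tables share the Th0 cultures, and the correlations include the difference between groups. The genes were picked as the highest of all those compared, which by itself favours high correlations over 8 libraries. These correlations were not tested.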

How the data were processed

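RNA-seq (paired-end reads of 100 bases) of 12 libraries was analysed. The labels name no column, so columns were assigned to groups by the ending of their heading. The ending found in both deposited tables was taken as Th0, and the endings found only in the Th17 or the iTreg table as that group. The authors aligned reads with TopHat 2.0.14 to mm10, used HTSeq-count without strand information to count exonic reads, removed genes with low CPM, and tested counts with edgeR in a design that the methods call pair-wise. The sources used here do not give the annotation or the calculation of FPKM. A table per comparison was deposited, with FPKM of 8 libraries and with their fold changes, log2 average CPM, likelihood ratios, p-values, and FDR, which were not used. The Th0 values differed between the tables by a factor of 1.01 per library, so FPKM were tested only within a table.

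Genes over 1 FPKM in at least 4 of 8 libraries (10269 of 11077 in the Th17 and 10208 of 11056 in the iTreg table) were tested by limma 3.58.1 (R 4.3.3) after conversion to log2(FPKM + 1), and p-values were adjusted by Benjamini-Hochberg with a threshold of 0.05. This scale understates the change of low genes. The tables hold no counts, which leaves the counting error of a value unknown. Ratios were tested by exact permutation in Python 3.11.15 with scipy 1.17.1.

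The sample titles name 4 numbered experiments, each with a Th0, an iTreg, and a Th17 library. Column headings carry no experiment number, and the unpaired fit, which leaves this matching out, is therefore given first. Libraries with the same beginning of the heading deviated together from their group means (correlations across genes of 0.45 to 0.784 in the Th17 and 0.662 to 0.769 in the iTreg table, against -0.59 to 0.434 and -0.576 to 0.248 for different beginnings), so a fit with it as a replicate block is given where it changes a call. Labels name the libraries biological replicates, and whether p-values also hold for other animals is not known.

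All 10 genes are reported, and of every other list at most the 4 genes with the largest fold change among DE genes, and counts of 5 or fewer. Bcl2l2, Bcl2l12, Usp9x, and Foxo3 were named after their values were seen. Values of some genes on these lists are not reported here. The genes and lists were chosen with earlier results of these data known. Coordinates are from GENCODE for GRCm38 (mm10). Alternatives were other pseudocounts, filters, scalings, and thresholds, limma-trend, and leaving out each library.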

Additional observations from a re-analysis of the deposited data

Results flagged for a closer look

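In 63 groups of 4 libraries, 5 held a library that lay apart by Dixon's test for 4 values. The gap to the nearest other library was 0.855 to 0.973 of the whole range of the group. The groups were formed from the 10 genes and the DE genes with the largest fold changes of the other apoptosis lists. Each gene was taken in Th0, Th17, and iTreg cells, while Foxp3 and the remaining genes were not checked. Chance gives about 1 in 20 groups, so that some such libraries are expected by chance. Bcl2 was at 20.5 FPKM in the Th17 library M43, where the next Th17 library was at 8.06 FPKM. The same library held 42.5 FPKM of Foxp3, against 0.499 to 4.5 FPKM in the other Th17 libraries, and the part of that in the Bcl2 value was not tested. Mcl1 was at 131 FPKM in the iTreg library M29, where the others were at 108 FPKM. The Th0 library M29 held 178 FPKM of Bax, where the next was at 245 FPKM, and 10.9 FPKM of Casp6, where the next was at 9.96 FPKM. Nfkb2 was at 59.1 FPKM in the Th17 library M22, where the next was at 49.8 FPKM.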

How the results depend on the processing

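Among 1983 DE genes in Th17 and 1691 in iTreg cells, an FDR threshold of 0.01 left 995 and 778, and the replicate block gave 3882 and 4170, among them all genes of the unpaired fit with the same direction. Leaving out 1 library each gave 1364 to 2237 and 1140 to 1521. Both scalings moved the median log2 fold change of all genes by less than 0.1. Bcl2, Bcl2a1b, and Bcl2l11 in Th17 cells and Bcl2l11 in iTreg cells kept direction and call under all alternatives except the FDR threshold of 0.01, under which Bcl2 (adjusted p = 0.0135) and Bcl2l11 (adjusted p = 0.0113) were not DE in Th17 cells. Their log2 fold changes ranged from -1.74 to -1.2, from -2.23 to -1.76, from -1.3 to -0.94, and from -1.26 to -0.99 when 1 library was left out. Bcl2a1d in iTreg cells passed in 5 of 17 alternatives, without a filter (adjusted p = 0.0495), with limma-trend (0.0481), with the replicate block, and without iTreg M22 or Th0 M43 (log2 fold changes of 0.93 to 1.38 with 1 library left out). The replicate block changed 4 calls of the 10 genes, all given above (log2 fold changes of -0.82 for Bcl2l1 and -0.36 for Bid in Th17 cells and of -0.66 for Bcl2a1b and 1.12 for Bcl2a1d in iTreg cells), and no other.

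Leaving out 1 library turned the sign of values that were not DE. These were Bak1 (-0.177 to 0.0402 in Th17 and -0.176 to 0.0395 in iTreg cells) and, in iTreg cells, Bcl2l1 (-0.0348 to 0.46), Mcl1 (-0.11 to 0.0227), and Bad (-0.0959 to 0.0449). It also turned the log2 difference of the Bcl2l11 to Mcl1 ratio between Th17 and iTreg cells (-0.24 to 0.13). Casp6 in iTreg cells turned to -0.0159 on the TPM scale. With 1 FPKM added, the difference of the Bcl2l11 to Bcl2l1 ratio between Th17 and iTreg cells was 1.22 and passed unadjusted (exact permutation p = 0.029). The calls of Bnip3l, Diablo, Fasl, Casp8, and Rel in iTreg cells were lost in 7, 10, 5, 11, and 3 of 17 alternatives. The causes of these changes were not tested. For the ratios, an exact test of 4 pairs allows no p below 0.125, so no paired p is given. Within a heading the 5 log2 differences with an exact permutation p = 0.029 had the same sign in 4 of 4 headings. They ranged from -1.83 to -1.43 and from 1.48 to 2.29 for Bcl2, from -1.54 to -0.87 and from -1.94 to -0.74 for Mcl1, and from -2.24 to -0.96 for Bcl2l1. With 1 library left out, ratios cannot reach 0.05 either (smallest p 0.057).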
